A study of Mus musculus with 2 samples.

Results

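The neurotrophins and their receptors were followed through 5 genes, the ligands Bdnf and Ntf3 and the receptors Ntrk2, Ntrk3 and Ngfr. They were taken by symbol from the 32285 genes counted in the nuclei of the adult mouse hippocampus and of the mouse brain at embryonic day 14 (E14), and each symbol matched 1 gene in both. In Slide-tags, spatial barcodes are added to nuclei while these still lie in the section, and the nuclei then go through droplet-based single-nucleus RNA sequencing. There was 1 library for each tissue. The hippocampus library came from a coronal section of a male C57BL/6J mouse at 56 days of age, perfused before the brain was frozen, and the E14 library from the brain region of a sagittal section through a whole C57BL/6J embryo. The labels and methods name no engineered allele and no treatment for either, and with 1 animal for each tissue no difference below has a replicate check. Levels are unique molecular identifiers (UMIs, counted RNA molecules) of a gene summed over nuclei, per 1000000 of all their UMIs (CPM). Intervals are exact 95% Poisson intervals for levels, exact binomial intervals for shares of nuclei and the matching conditional intervals for ratios, and all of them cover counting error only.

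Neurotrophins are secreted growth factors that keep neurons alive in development and tune synapses in the mature brain. Brain-derived neurotrophic factor (Bdnf) binds the receptor tyrosine kinase TrkB, the product of Ntrk2, and neurotrophin-3 (Ntf3) binds mainly TrkC, the product of Ntrk3. The p75 receptor, the product of Ngfr, binds all neurotrophins and their uncleaved precursors. In the adult hippocampus, Bdnf is known as a gene that neuronal activity switches on, and both Trk genes also make truncated receptors that lack the kinase.

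The 5 genes differ in how they can be counted. On the GRCm38 build (GENCODE vM21), Bdnf lies at chr2:109674700-109727007 on the plus strand with 11 annotated transcripts, and Ntf3 at chr6:126101412-126166910 on the minus strand with 3. Ntrk2 lies at chr13:58806569-59133970 on the plus strand, and its 7 coding transcripts encode 466 to 821 codons. Ntrk3 lies at chr7:78175959-78738012 on the minus strand, with 6 coding transcripts of 82 to 864 codons, and Ngfr at chr11:95568818-95587735 on the minus strand with 1 transcript. The genes span 18918 to 562054 bp, and intronic reads were counted, so that longer genes collect more UMIs and levels are compared here between nuclei and not between genes. The counts do not separate kinase-bearing from truncated receptors. Gm47423 and 4930415C11Rik are genes on the opposite strand inside Ntrk2. They had 1134 and 1270 UMIs in the hippocampus library beside 6388 of Ntrk2, and 2396 and 3639 in the E14 library beside 16389. The use of strand in the counting is not given in the sources used here, and whether it kept reads of Ntrk2 and of these genes apart was not tested.

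Both ligand genes were followed into dentate granule cells below, so the 250 bases before a start of each are shown (RefSeq, GRCm38.p6, gene strand, 5′ to 3′). The Bdnf start is the only one of its 7 annotated starts with a CGTCA in the window searched, 250 bases before to 50 after the start. Capitals mark that CGTCA, which reads TGACG on the other strand, the core of the cAMP response element through which activity-dependent transcription factors of the CREB family bind DNA. The Bdnf sequence is chr2:109692186-109692435 on the plus strand and the Ntf3 sequence chr6:126164961-126165210 on the minus strand.
Bdnf: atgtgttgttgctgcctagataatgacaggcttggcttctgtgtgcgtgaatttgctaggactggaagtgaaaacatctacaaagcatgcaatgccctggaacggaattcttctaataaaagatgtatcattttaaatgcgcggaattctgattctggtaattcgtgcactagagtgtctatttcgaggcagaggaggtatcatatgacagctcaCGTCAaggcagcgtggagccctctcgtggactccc
Ntf3: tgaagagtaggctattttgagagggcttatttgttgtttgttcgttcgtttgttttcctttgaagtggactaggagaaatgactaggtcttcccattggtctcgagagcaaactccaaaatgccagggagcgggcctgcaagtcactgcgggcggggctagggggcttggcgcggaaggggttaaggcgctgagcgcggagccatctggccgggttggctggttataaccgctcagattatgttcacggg
The CGTCA lies 35 bases before the start. The same 5 letters, read on both strands, were found in 0 of 2 windows of Ntf3, 0 of 1 of Ntrk2 and 0 of 1 of Ngfr, and in 20.8% of 32851 windows of all genes. A match to letters this short describes the sequence and is no evidence of binding.

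After nuclei with fewer than 500 UMIs or at least 5% mitochondrial UMIs were left out, 1609 nuclei with 15346746 UMIs remained in the hippocampus library and 9036 nuclei with 58923882 UMIs in the E14 library. Median depths were 6607 and 4204 UMIs per nucleus. Clusters were named from lists of 8 marker genes and are called "like" a cell type, with at least 4 markers of the list in each. In the hippocampus library 10 classes were named and 2 clusters with 14.4% of nuclei were not, and in the E14 library 10 classes were named and 12 clusters with 57.5% of nuclei were not. Unnamed clusters are called by leading genes or by their number of nuclei. The punch also held thalamic-like and cortical excitatory-like nuclei, so the hippocampus library is not hippocampus alone. In both libraries the endothelial-like cluster also had 7 of the 8 mural markers. No mural class was named, so endothelial-like values may include mural nuclei. In the hippocampus library a cluster of 38 nuclei with all 8 microglial markers, led by Ptafr, Gm40645 and A530088E08Rik, stayed unnamed under the rule for shallow clusters. A cluster of 194 nuclei led by Map1a, Git1 and Hpca had a median of only 805 UMIs, 1.07% mitochondrial UMIs and 0.604% of UMIs from Malat1, a nuclear RNA that made up 2.60% to 9.35% in the deeper clusters of that library. The members were left out of the genes used for clustering.

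The first question was how the 5 genes differ between the adult hippocampus and the E14 brain as wholes. Both ligands were far more abundant in the adult library, the 2 Trk receptor genes differed little, and Ngfr was the reverse, found nearly only at E14. Bdnf had 947 UMIs in the hippocampus library and 279 in the E14 library, or 61.7 (57.8 to 65.8) against 4.74 (4.196 to 5.32) CPM, a 13.0-fold difference (11.4 to 15.0). Ntf3 had 540 and 204 UMIs, or 35.2 against 3.46 CPM, 10.2-fold higher in the hippocampus (8.64 to 12.0). Of all 20842 genes with at least 20 UMIs over both libraries, 17.2% were at least 2-fold higher in the hippocampus and 24.1% at least 2-fold lower, and Bdnf and Ntf3 were the 2 of 5 members in the first set and Ngfr the 1 in the second. With 5 members, these counts do not set them apart from all genes, and the sizes below are what the comparison gives. Ntrk2 stood at 416 against 278 CPM, 1.497-fold higher in the hippocampus (1.45 to 1.54), and Ntrk3 at 660.2 against 504, 1.31-fold higher (1.28 to 1.34). These 2 ratios were small beside those of the ligands, and averaging the levels of nuclei in place of summing them put Ntrk3 at a ratio of 0.971, on the other side of 1. Ngfr had 7 UMIs in the hippocampus library and 251 in the E14 library, 0.456 against 4.26 CPM, 9.34-fold higher at E14 (4.47 to 23.5). Averaging over nuclei put the hippocampus to E14 ratio of Ngfr at 0.270 in place of 0.107, in the same direction but outside the counting interval. In such sums over all nuclei, a change in the share of a cell class and a change in its level cannot be told apart.

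The share of nuclei with a UMI followed the levels for the ligands. Bdnf was found in 27.3% of hippocampus nuclei and 2.50% of E14 nuclei, and in 3.98% and 0.363% when every nucleus was thinned to 1000 UMIs to remove the difference in depth. For Ntf3 the shares were 17.4% and 1.56% as counted and 2.84% and 0.275% thinned. Ntrk2 was found in 61.5% and 53.7% of nuclei, thinned 26.1% and 22.3%, and Ntrk3 in 53.2% and 56.1%, thinned 33.6% and 30.5%. Thinning left out 203 and 1039 nuclei with fewer than 1000 UMIs. Ngfr was found in 7 nuclei of the hippocampus library with 1 UMI each, and in 209 nuclei (2.31%) at E14.

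Among the named classes of the hippocampus library, Bdnf was highest in dentate granule-like, CA3-like and CA1-like nuclei. Dentate granule-like nuclei, the neurons that relay cortical input to CA3, had 572 of the 947 Bdnf UMIs (60.4%) with 37.3% of all UMIs. Their level was 99.9 CPM (91.9 to 108), and CA3-like nuclei, the pyramidal neurons they contact, had 114 (90.8 to 142), so the intervals of these 2 classes overlapped. CA1-like nuclei were lower at 56.5 (49.0 to 64.9), with an interval apart from both. One CA3-like nucleus of 34 held 28 of the 82 Bdnf UMIs of its class, and without it the level was 82.6 (62.1 to 108), below the dentate granule-like level and with an interval that overlapped the one of CA1-like nuclei. When each nucleus was classed by its own marker UMIs, the CA3-like level was instead 182, beside 100.2 in dentate granule-like and 68.8 in CA1-like nuclei. The place of CA3-like nuclei in this order therefore depends on 1 nucleus and on how the class is drawn, while dentate granule-like nuclei were above CA1-like nuclei in each case.

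All other named classes had lower Bdnf levels. Astrocyte-like nuclei had 20.4 CPM (12.9 to 30.5) from 23 UMIs, which was 10.8 when clusters were made from 4000 variable genes. Cortical excitatory-like nuclei had 14.6 from 7 UMIs, thalamic-like nuclei 11.5 from 17 and endothelial-like nuclei 9.62 from 4. Oligodendrocyte-like nuclei had 3 UMIs (3.68 CPM) and inhibitory-like nuclei 2 (3.52 CPM), while 0 of 170736 UMIs in oligodendrocyte precursor-like nuclei allows up to 17.6 CPM. The neighbours in this lower part of the order had overlapping intervals. Of the shallow nuclei led by Map1a, 25 had Bdnf, with 35 UMIs in 215436 and a level of 163 CPM (113 to 226), the highest point value of the 12 groups. That interval overlaps the one of CA3-like nuclei. Its nuclei are poor in Malat1, and the part that RNA from outside the nucleus has in the level was not tested.

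Ntf3 was almost exclusive to dentate granule-like nuclei, with 493 of 540 UMIs (91.3%). The level there was 86.1 CPM (78.7 to 94.1). CA1-like nuclei had 7 UMIs in 3538776 (1.98 CPM) and CA3-like nuclei had 1 (1.39 CPM), so that the 2 pyramidal classes with Bdnf were nearly without Ntf3. The highest other named class was astrocyte-like, with 15.0 CPM (8.76 to 24.1) from 17 UMIs, 6 of them in 1 nucleus. The 8 dentate granule markers summed to 414 CPM in astrocyte-like nuclei against 2288 in dentate granule-like nuclei, with 0 of the 8 absent from the former. The same list summed to 2745 CPM in oligodendrocyte-like nuclei, where Ntf3 was 3.68 CPM, so the sum is no measure of dentate granule RNA. The part of free RNA or mixed droplets in the astrocyte-like Ntf3 signal was not tested. Inhibitory-like nuclei had 4 Ntf3 UMIs, all in 1 nucleus, and endothelial-like nuclei had 0 of 415659 UMIs, which allows up to 7.22 CPM. Counted by nuclei, Bdnf was found in 59.3% and Ntf3 in 57.2% of 428 dentate granule-like nuclei, at a median of 11368 UMIs. In oligodendrocyte-like nuclei, taken as a class that should lack both genes, each was found in 1.27% at a median of 3029 UMIs. Thinned to 1000 UMIs, each ligand on its own was found in 7.96% (5.58% to 10.95%) of dentate granule-like nuclei. In oligodendrocyte-like nuclei the shares were 0.881% for Bdnf and 0.441% for Ntf3.

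**Figure D1:**
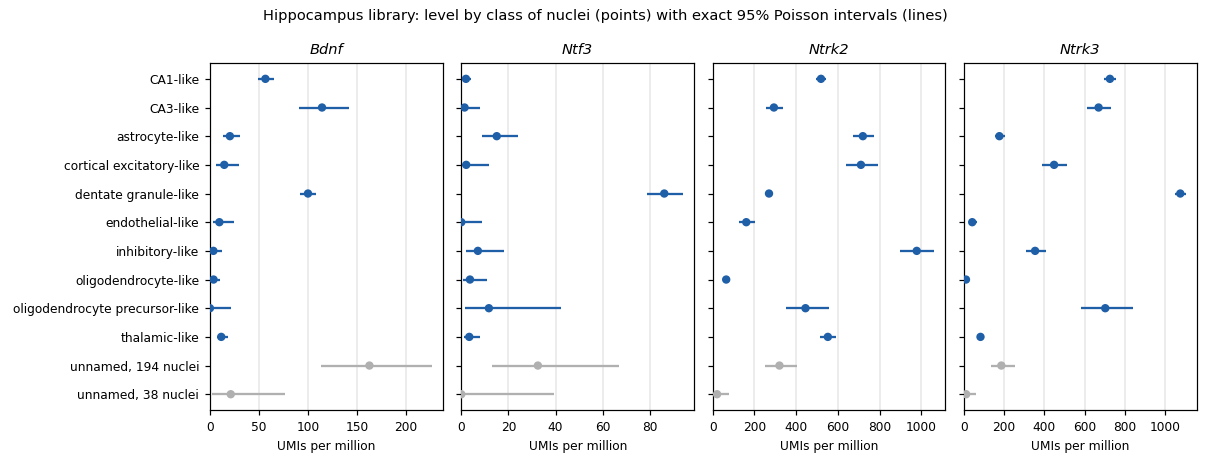
Levels of Bdnf, Ntf3, Ntrk2 and Ntrk3 in CPM (x axes, a separate scale for each gene) in the 10 named classes (blue) and 2 unnamed clusters (grey) of the hippocampus library, as points with exact 95% Poisson intervals. Ntf3 stands at 86.1 in dentate granule-like nuclei and at 32.5 or below in all other groups, while Ntrk2 is highest in inhibitory-like nuclei (978) and Ntrk3 in dentate granule-like nuclei (1076).

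The receptor genes had a wider distribution over the same nuclei. Ntrk2 was highest in inhibitory-like nuclei at 978 CPM (899 to 1063), followed by astrocyte-like nuclei at 720.1 (672 to 771) and cortical excitatory-like nuclei at 711 (637 to 791), whose intervals overlapped. Thalamic-like nuclei had 552 and CA1-like nuclei 519, also with overlapping intervals. The classes with the highest Bdnf levels were low in the order for its receptor, CA3-like nuclei with 294 (255 to 336) and dentate granule-like nuclei with 270.2 (257 to 284). Endothelial-like nuclei had 161 CPM, or 54.4 when each nucleus was classed by its own marker UMIs, and oligodendrocyte-like nuclei 65.0. The 38 nuclei with microglial markers had 2 Ntrk2 UMIs and 1 Ntrk3 UMI, 21.2 and 10.6 CPM. In CA1-like nuclei Ntrk2 was found in 95.7%, and in 40.8% after thinning to 1000 UMIs, against 5.26% of the nuclei with microglial markers as counted and 0 of 37 thinned.

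Ntrk3 differed from Ntrk2 in its order of classes. Dentate granule-like nuclei led at 1076 CPM (1049 to 1103) and held 60.8% of all Ntrk3 UMIs. CA1-like nuclei at 726 (698 to 755), oligodendrocyte precursor-like nuclei at 703 (583 to 840.4) and CA3-like nuclei at 670 (611 to 732) followed and had overlapping intervals. Cortical excitatory-like and inhibitory-like nuclei were lower at 448 and 354. The sharpest contrast between the 2 receptor genes lay in astrocyte-like and thalamic-like nuclei, which were among the higher classes for Ntrk2 and had only 176 (152 to 202) and 82.1 (68.1 to 98.1) CPM of Ntrk3. The astrocyte-like Ntrk3 level was 112 with clusters from 4000 variable genes. Oligodendrocyte-like nuclei had 8 Ntrk3 UMIs (9.81 CPM), a value that was 104 when each nucleus was classed by its own marker UMIs, so that the low level depends on how the class is drawn.

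Ngfr was hardly detected in the hippocampus library. Its 7 UMIs were 3 in oligodendrocyte-like, 2 in inhibitory-like and 2 in astrocyte-like nuclei. In dentate granule-like nuclei 0 of 5725767 UMIs allows up to 0.524 CPM, and in CA1-like nuclei 0 of 3538776 allows up to 0.848.

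Each class was also set beside the remaining nuclei of its library over all genes with at least 200 UMIs, 9690 in the hippocampus library, where 4 members qualified. In dentate granule-like nuclei 3 of the 4 (Bdnf, Ntf3 and Ntrk3) were at least 2-fold higher than in the other nuclei, as were 5.46% of all genes. Inhibitory-like nuclei had only Ntrk2 higher, against 5.6% of genes. All 4 were at least 2-fold lower in oligodendrocyte-like nuclei, against 28.3% of genes, and in endothelial-like nuclei, against 25.3%. These counts describe clusters found in the same nuclei and carry no test.

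In the E14 library the ligands were sparse. The dentate granule, CA1 and CA3 classes, which held most adult ligand UMIs, had no marker list at E14. The main ligand classes could therefore not be the same in the 2 libraries. Bdnf was not above 15.2 CPM in any group. The highest values were in unnamed clusters, 15.2 (10.5 to 21.4) from 33 UMIs in a cluster of 256 nuclei, 13.99 (9.57 to 19.8) from 32 UMIs in one of 387 nuclei, and 12.8 (7.19 to 21.2) from 15 UMIs in 181 nuclei led by 4921518K17Rik, Gm43824 and Lmx1b. Their intervals overlapped one another and that of hypothalamic-like nuclei, the highest named class at 8.96 (4.77 to 15.3). Cortical excitatory-like nuclei had 24 UMIs, or 4.85 CPM (3.11 to 7.22), and radial glia-like and fibroblast or mesenchyme-like nuclei 1.64 and 1.06. These orders depend on the classing, since by own marker UMIs radial glia-like nuclei had 6.33 CPM, above cortical excitatory-like nuclei at 1.40, fibroblast or mesenchyme-like nuclei had 0, and Cajal-Retzius-like nuclei were the highest named class at 9.46. The 3 Bdnf UMIs of the microglia or macrophage-like class were all in 1 nucleus.

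Ntf3 at E14 had its highest levels in cortical excitatory-like nuclei and in nuclei like the choroid plexus, the epithelium that makes cerebrospinal fluid. Cortical excitatory-like nuclei held 77 of its 204 UMIs (37.7%) with 8.39% of all UMIs, a level of 15.6 CPM (12.3 to 19.5). This was 6.98 when each nucleus was classed by its own marker UMIs, and choroid plexus-like nuclei were then the highest class at 9.05. Choroid plexus-like nuclei had 8.42 (5.14 to 13.0) from 20 UMIs by cluster, so the intervals of the 2 classes overlapped. A cluster of 1012 nuclei led by Tnr, C79798 and Clstn2 had 5.42 (3.36 to 8.29) from 21 UMIs, and fibroblast or mesenchyme-like nuclei had 3.87 (1.93 to 6.925). Both intervals overlapped the one of choroid plexus-like nuclei. An unnamed cluster of 488 nuclei had 24 Ntf3 UMIs, a level of 2.53 (1.62 to 3.765). Ntf3 was found in 6.82% of cortical excitatory-like nuclei and in 0 of 81 microglia or macrophage-like nuclei, where 0 of 595830 UMIs allows up to 5.04 CPM. All 19 Ntf3 UMIs of radial glia-like nuclei were in one of the 2 clusters of that class, described below, and by own marker UMIs the radial glia-like class had 0.

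Ntrk2 at E14 was highest in Cajal-Retzius-like nuclei, the early Reelin-releasing neurons of the cortical surface, at 594 CPM (539 to 653). The unnamed clusters led by Col25a1 and by Gfra2 followed at 459 and 448. Thalamic-like and forebrain GABAergic-like nuclei had 334 and 328 with overlapping intervals, cortical excitatory-like nuclei 203 (191 to 216), and radial glia-like nuclei, the progenitors of the brain, 135 (126 to 145). Ntrk3 ran in a different order. It was highest in 552 nuclei led by Sim1, Otp and Gm27016 at 1047 (1013 to 1082) and in cortical excitatory-like nuclei at 1035 (1007 to 1064), whose intervals overlapped, and next in hypothalamic-like nuclei at 787 (742 to 834). Those 552 nuclei had 3 markers of the hypothalamic list, Sim1 and Otp among them, under the 4 needed for the name. Cajal-Retzius-like nuclei, first for Ntrk2, were last for Ntrk3 at 176 (147 to 210.1). Against the other nuclei, over 13945 genes, Cajal-Retzius-like nuclei were at least 2-fold higher for Ntrk2 (4.12% of genes) and at least 2-fold lower for Ntrk3 (18.0%), and cortical excitatory-like nuclei at least 2-fold higher for Ntf3 and Ntrk3 (2.14%). Classing each nucleus by its own marker UMIs moved several of these Ntrk3 levels by more than 1.5 times. By that classing hypothalamic-like nuclei were at 1314, above the cortical class, Cajal-Retzius-like nuclei at 387, thalamic-like nuclei at 346 in place of 217, and radial glia-like nuclei at 133 in place of 469. With the members and pathway genes kept among the variable genes, hypothalamic-like nuclei were also the highest named class for Ntrk3, at 1053.

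Some receptor signal lay in E14 classes that should have little of it. In microglia or macrophage-like nuclei 28 of 81 had Ntrk2, 15 of them with at least 3 UMIs, and 24 had Ntrk3, 18 of them with at least 3 UMIs. The levels were 195 and 248 CPM, beside 203 and 1035 in cortical excitatory-like nuclei, and Ntrk2 was 88.5 when each nucleus was classed by its own marker UMIs. All 8 microglial markers were detected there at 3253 CPM in sum, beside 1861 for the thalamic list and 713 for the forebrain GABAergic list. The thalamic list summed to 3529 CPM in fibroblast or mesenchyme-like and 948 in cortical excitatory-like nuclei, so it does not mark neurons alone. Endothelial-like nuclei had 118 CPM of Ntrk2 and 226 of Ntrk3, which became 54.8 and 74.3 by own marker UMIs, and 1 nucleus held 149 of their 560 Ntrk3 UMIs. The part of mixed droplets in these levels was not tested.

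Ngfr at E14 was concentrated in fibroblast or mesenchyme-like nuclei, the cells of the meninges and connective tissue. They held 92 of 251 UMIs (36.7%) with 4.82% of all UMIs. The level was 32.4 CPM (26.1 to 39.7), with an interval above those of all 21 other groups. Endothelial-like nuclei, whose cluster also had 7 mural markers, were next at 8.08 (4.93 to 12.48), and no other group was above 7.38. By nuclei, 16.2% of fibroblast or mesenchyme-like nuclei had Ngfr (2.27% thinned to 1000 UMIs) against 0 of 81 microglia or macrophage-like nuclei, and the fibroblast class was at least 2-fold higher than the other nuclei for this member alone, as were 7.82% of genes.

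**Figure D2:**
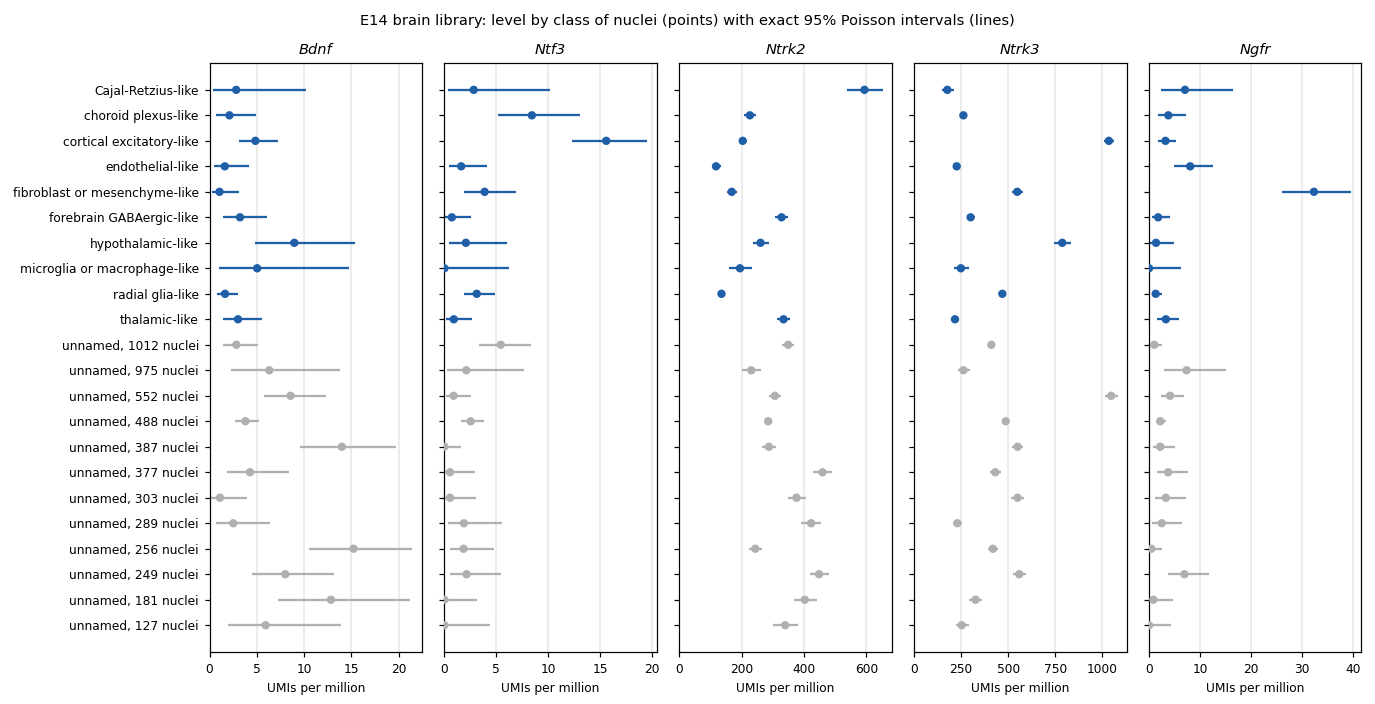
Levels of the 5 genes in CPM (x axes, a separate scale for each gene) in the 10 named classes (blue) and 12 unnamed clusters (grey, called by their number of nuclei) of the E14 library, as points with exact 95% Poisson intervals. Ngfr stands at 32.4 in fibroblast or mesenchyme-like nuclei, Ntf3 peaks in cortical excitatory-like nuclei (15.6), and Cajal-Retzius-like nuclei are highest for Ntrk2 (594) and low for Ntrk3 (176).

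Classes found under like names in both libraries let the adult be set beside E14 with the mix of classes held closer. By cluster, Ntrk2 was higher in the adult class in each of the 5 pairs in the plot of ratios and Ntrk3 was higher at E14 in 4 of them. The microglial pair, which is not in the plot, had both genes higher at E14. By own marker UMIs the Ntrk2 difference in the endothelial pair and the direction of Ntrk3 in the astrocyte pair were lost. In cortical excitatory-like nuclei (29 adult and 616 E14), Ntrk2 was 711 against 203 CPM, 3.50-fold higher in the adult (3.08 to 3.96), while Ntrk3 was 448 against 1035, 2.31-fold higher at E14 (2.01 to 2.66). In that pair 19.5% of 13012 genes were at least 2-fold higher in the adult and 25.5% at least 2-fold lower. In thalamic-like nuclei Ntrk2 was 1.65-fold higher in the adult (1.51 to 1.81) and Ntrk3 2.65-fold higher at E14 (2.18 to 3.23), where 17.0% and 22.5% of genes passed 2-fold. The E14 Ntrk3 level of that class was 217 CPM by cluster and 346 by own marker UMIs.

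The remaining pairs join less similar cells. Adult inhibitory-like beside forebrain GABAergic-like nuclei had Ntrk2 at 978 against 328, 2.98-fold higher (2.68 to 3.32), against 17.5% of genes at least 2-fold higher, and Ntrk3 at a ratio of 1.18 (1.01 to 1.38). Adult astrocyte-like nuclei beside radial glia-like nuclei, which are another cell type, had the widest Ntrk2 difference, 720.1 against 135 CPM or 5.32-fold (4.82 to 5.87), and Ntrk3 was 2.66-fold higher at E14 (2.31 to 3.09), with 21.1% and 27.8% of genes past 2-fold. By own marker UMIs Ntrk3 was 138 in astrocyte-like and 133 in radial glia-like nuclei, so this direction depends on the classing. In endothelial-like nuclei Ntrk2 was 1.37-fold higher in the adult (1.03 to 1.79) and Ntrk3 5.53-fold higher at E14 (3.42 to 9.56), with 16.9% and 25.9% of genes past 2-fold. By own marker UMIs the Ntrk2 levels of this pair were 54.4 in the adult and 54.8 at E14, so the direction was lost. The E14 Ntrk3 level of this class was 226 CPM by cluster and 74.3 by own marker UMIs, so the size of that difference depends on the classing. In each class 1 nucleus held many of the Ntrk3 UMIs, 149 of 560 at E14 and 8 of 17 in the adult. The 38 adult nuclei with microglial markers had 2 Ntrk2 UMIs against 116 in the E14 microglia or macrophage-like class, a ratio of 0.109 (0.0130 to 0.403), and 1 Ntrk3 UMI against 148, a ratio of 0.0427 (0.00107 to 0.242), with 16.3% and 30.1% of genes at least 2-fold higher and lower in the adult.

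The ligands were low in all pairs. Bdnf in thalamic-like nuclei was 11.5 against 3.01 CPM, 3.83-fold higher in the adult (1.66 to 9.36) from 17 and 10 UMIs. In cortical excitatory-like nuclei it was 3.01-fold higher (1.09 to 7.19) from 7 and 24 UMIs, and Ntf3 had 1 UMI in the adult class against 77 at E14, a ratio of 0.134 (0.00335 to 0.769). The adult Bdnf level of the cortical class was 3.51 by own marker UMIs, where the E14 level was 1.40. In astrocyte-like beside radial glia-like nuclei Bdnf was 20.4 against 1.64 CPM, 12.4-fold higher in the adult (5.69 to 29.2) from 23 and 10 UMIs, and Ntf3 was 4.83-fold higher (2.36 to 9.82) from 17 and 19. Those 2 Bdnf levels were 19.6 and 6.33 by own marker UMIs. In endothelial-like nuclei the Bdnf ratio was 5.96 (1.11 to 32.0) from 4 UMIs in each class. Adult inhibitory-like and E14 forebrain GABAergic-like nuclei hardly differed in Bdnf. Their levels were 3.52 CPM (0.426 to 12.7) from 2 UMIs and 3.22 (1.47 to 6.12) from 9, with overlapping intervals. The 13.0-fold difference of Bdnf over all nuclei thus lay above the intervals of the cortical and thalamic pairs and within those of the astrocyte and endothelial pairs. The dentate granule-like class, which held most adult ligand UMIs, has no E14 counterpart here, since no dentate granule list was among those used at E14.

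**Figure D3:**
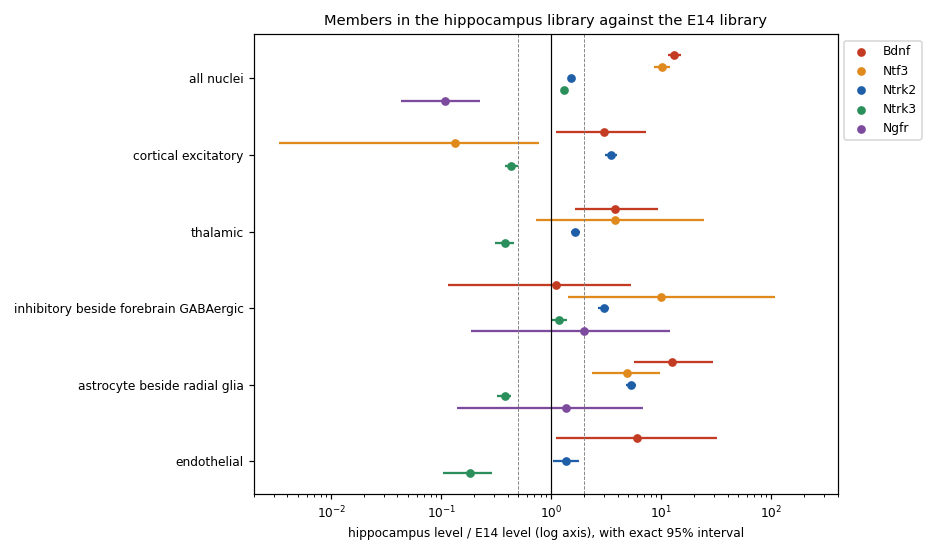
Ratio of the hippocampus level to the E14 level (x axis, log scale) of each member over all nuclei and in 5 pairs of like-named or related classes, as points with exact 95% intervals, dashed lines at 2-fold. Members with 0 UMIs in a hippocampus class are not drawn, and neither is the microglial pair, where Ntrk2 was higher at E14. Ntrk2 lies right of 1 in all 6 rows (1.37 to 5.32), although by own marker UMIs the endothelial levels were 54.4 and 54.8, and Ntrk3 lies left of 1 in the cortical, thalamic, astrocyte and endothelial rows, a direction lost in the astrocyte row by own marker UMIs.

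Dentate granule-like nuclei formed 2 clusters of similar depth, one of 221 nuclei led by Ryr1, Gm11728 and Akain1 and one of 207 led by Gm6999, Ccdc33 and Gsg1l and also by Plk5 and Trpc6. Bdnf was 68.1 CPM (59.3 to 77.9) in the first and 138 (124 to 153) in the second, 2.03-fold higher (1.71 to 2.42), and was found in 48.0% and 71.5% of their nuclei. Of 12531 genes, 2.88% were at least 2-fold higher in the second cluster and 2.94% at least 2-fold lower. Ntf3 stood at 85.4 and 87.0, a ratio of 1.02 (0.850 to 1.22), so the ligands parted within this class. The receptors went the other way from Bdnf, Ntrk3 from 1276 to 834 (ratio 0.654, 0.620 to 0.689) and Ntrk2 from 296 to 240 (ratio 0.810, 0.730 to 0.897). The summed level of 10 activity-regulated genes, immediate early genes and their kind such as Fos, Arc and Egr1, was 124 and 110 CPM in the 2 clusters, a ratio of 0.885 (0.757 to 1.03). Most of this sum was Homer1, with 252 of 388 and 177 of 285 UMIs. Fos had 3 and 2 UMIs, Arc 6 and 4, and Egr1 27 and 18. Gene by gene, the intervals lay above 1 for 2 of the 10, Vgf (2.50) and Nptx2 (8.43), and below 1 for 2, Junb (0.585) and Npas4 with 8 UMIs against 0.

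In CA1-like nuclei Bdnf and the activity-regulated genes differed in the same direction. Clustered on their own, the 184 nuclei split into 119 led by Nos1, Gm41414 and Gm16351 and 65 led by Col11a1, St18 and Ndst4. Ndst4 was 88.2 CPM in the first and 990 in the second, and Epha3 was 350 and 47.9. Bdnf was 41.0 CPM (33.0 to 50.3) in the first and 82.8 (68.0 to 99.9) in the second, 2.02-fold higher (1.52 to 2.70), against 3.09% of 11033 genes at least 2-fold higher. Its receptor gene Ntrk2 was 1.51-fold higher in the second (436 to 659 CPM, 1.38 to 1.66), and Ntrk3 was slightly lower (ratio 0.882, 0.812 to 0.958). The activity-regulated list summed to 482 and 982 CPM, a ratio of 2.04 (1.88 to 2.21), with the intervals of 9 of 10 genes above 1. Fos differed 4.93-fold, Nr4a1 2.79-fold, Arc 2.76-fold and Egr1 2.66-fold, and Fosb had 1 UMI against 5. At a finer resolution CA1-like nuclei made 3 sub-clusters with Bdnf at 30.9, 54.2 and 85.0 CPM. The paper gave sublayer labels to the clusters of its own CA1 nuclei. The part of CA1 sublayer in the differences between the sub-clusters was not tested.

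**Figure D4:**
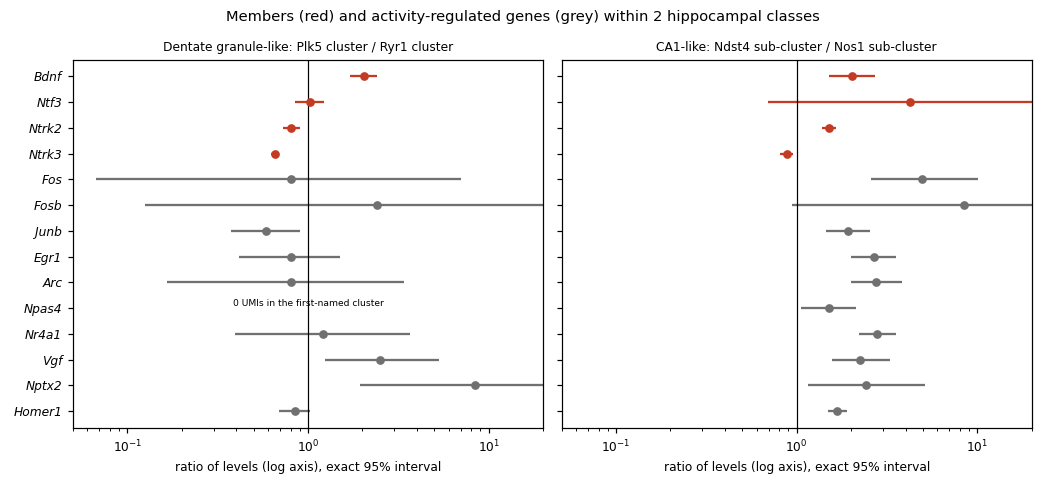
Ratios (x axes, log scale) of the members (red) and 10 activity-regulated genes (grey) between the 2 dentate granule-like clusters (left, Plk5 cluster over Ryr1 cluster) and the 2 CA1-like sub-clusters (right, Ndst4 over Nos1), with exact 95% intervals that run on past the frame where wide. Bdnf is 2.03-fold and 2.02-fold higher in the 2 panels, and 9 of 10 activity-regulated genes lie with their intervals above 1 on the right but only 2 on the left.

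The clusters of E14 radial glia-like nuclei also differed in the receptors. In 470 nuclei led by Gm29260, Tfap2c and Creb5, Ntrk3 was 667 CPM and Ntrk2 90.8, and in 455 nuclei led by Ano1, Vit and Depdc1b they were 259 and 183. Ntrk2 was thus 2.01-fold higher (1.74 to 2.33) and Ntrk3 lower, at a ratio of 0.387 (0.356 to 0.421), in the second, and all 19 Ntf3 UMIs were in the first. In that comparison 7.45% of 13762 genes were at least 2-fold higher in the second cluster and 4.45% at least 2-fold lower. Forebrain GABAergic-like clusters had Ntrk3 at 241 and 448 CPM, a ratio of 1.86 (1.62 to 2.14). Among astrocyte-like clusters in the hippocampus library, 21 nuclei had Ntrk2 at 1199, 102 had 745 and 87 shallow nuclei (median 1201 UMIs, 0.463% Malat1) had 387.

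Ligand and receptor were asked about in the same nucleus after thinning to 2000 UMIs. In dentate granule-like nuclei Bdnf and Ntrk2 were found together in 5.65% of 425 nuclei (3.65% to 8.29%), where the product of the separate shares was 5.47%. For Ntf3 and Ntrk3 it was 12.9% (9.90% to 16.5%) against a product of 12.1%, and for Ntrk2 and Ntrk3 36.0% against 35.1%. CA1-like nuclei had Bdnf with Ntrk2 in 6.52% against a product of 5.98%. In E14 cortical excitatory-like nuclei Ntf3 and Ntrk3 were together in 1.26% of 556, against 1.25%. In each of these the product lay within the interval of the joint share, so no difference was detectable at a depth of 2000 UMIs.

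The other genes of the pathway were read from 5 lists with 44 genes, each of which had at least 20 UMIs over both libraries. Over all nuclei 17 were at least 2-fold higher in the hippocampus and 4 at least 2-fold lower, beside 17.2% and 24.1% of all genes, with a median ratio of 1.37 against 0.896 for all genes. Of the 17, 10 were the activity-regulated genes, and of the other 34 genes 7 were higher, a share near that of all genes. Among 5 genes of the sortilin family, receptors for uncleaved neurotrophins and their sorting, Sorl1 was 4.15-fold higher in the hippocampus and Sorcs1 3.97-fold higher at E14. Of 7 genes for processing and release, the convertase gene Pcsk6 (2.00-fold) and Cadps2, for vesicle release (2.07-fold), were higher in the hippocampus and the protease gene Mmp9 had 0 UMIs against 96, at least 8.33-fold lower. Of 14 adaptors and effectors of Trk receptors, Shc3 alone passed 2-fold (3.32-fold higher in the hippocampus).

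Partners of the p75 receptor split between the libraries. Of 8, Rtn4r (3.43-fold), the Nogo receptor that pairs with it, Lingo1 (2.36-fold) and Ripk2 (2.12-fold) were higher in the hippocampus, although Ngfr itself was nearly absent there, and Nradd (15.6-fold) and Maged1 (2.25-fold) were higher at E14. The activity-regulated list was the one whose members all moved one way, with 10 of 10 at least 2-fold higher in the hippocampus, from Homer1 at 2.14-fold to Arc at 67.3-fold. By class it summed to 1007 CPM in cortical excitatory-like, 668 in CA1-like and 544 in CA3-like nuclei but 118 in dentate granule-like nuclei, which was near the E14 groups (60.2 to 108). The class with most Bdnf UMIs was thus low for the sum of these genes, and most of that sum was Homer1 there.

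**Figure D5:**
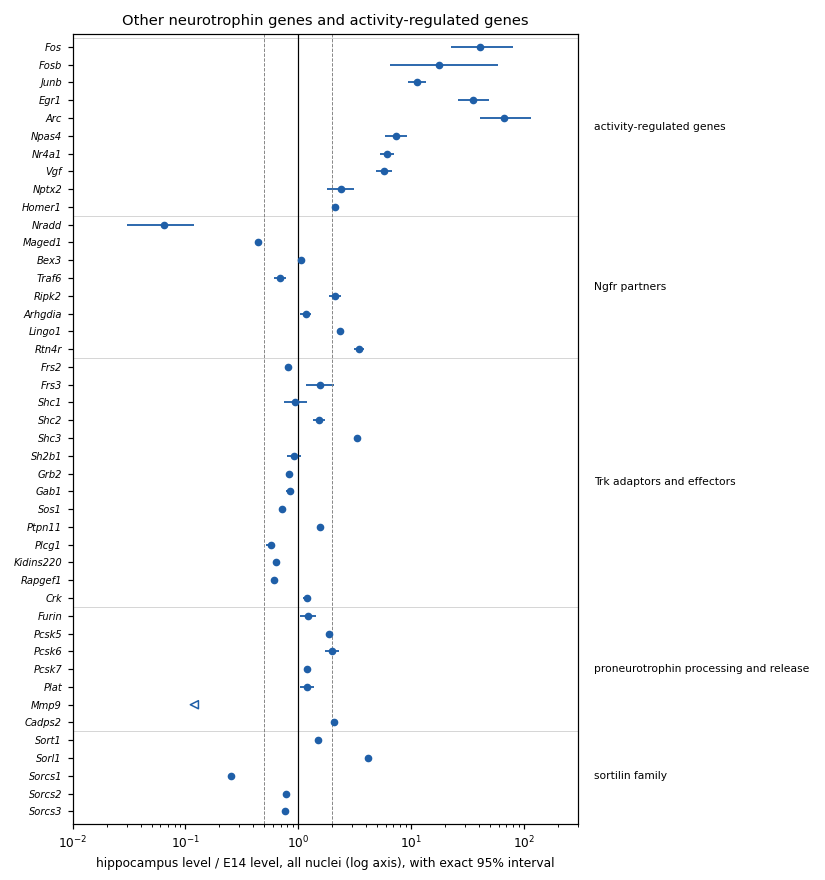
Ratio of the hippocampus level to the E14 level over all nuclei (x axis, log scale) for 44 other genes of the pathway, grouped by role, as points with exact 95% intervals, with dashed lines at 2-fold. The open triangle is the upper limit for Mmp9, which had 0 UMIs in the hippocampus library, and all 10 activity-regulated genes lie right of the 2-fold line.

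Finally, the genes whose levels ran most like each member over the groups of a library were listed, with Pearson's r on log2(level + 1) as a description. Over the 12 hippocampus groups and 9689 genes these were Hipk4 (0.908), Zbtb18 (0.900) and Ppp3ca (0.892) for Bdnf, and Igsf3 (0.873), Rprd1a (0.829) and Slc29a4 (0.822) for Ntf3. For Ntrk2 they were Thrb (0.963), Podxl2 (0.956) and Gm47423 (0.954), and for Ntrk3 5031415H12Rik (0.968), Gm10558 (0.962) and Entpd6 (0.952). Over the 22 E14 groups and 13944 genes, Ntrk2 ran most like Gm47423 (0.903) and 4930415C11Rik (0.886), both of which lie within it on the other strand, and Akap6 (0.864). Bdnf ran most like D130043K22Rik (0.796), Ntf3 like Foxp4 (0.757), Ntrk3 like Alcam (0.745) and Ngfr like Col6a2 (0.773), a collagen gene. Between Ntrk2 and Ntrk3 r was 0.752 over the hippocampus groups and -0.13 over the E14 groups. The groups of a library share its nuclei, depth and free RNA, so these values carry no test.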

How the data were processed

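UMI counts per gene and nucleus were deposited by the authors for 1 library from the adult hippocampus and 1 from the E14 brain, with no normalization. The mm10 genome was the authors' reference, intronic reads were counted, and Cell Ranger 6.1.2 (hippocampus) and 7.0.1 (embryo) made the matrices per the file headers. CellBender is named in the methods for the embryo. Its deposited matrix has the header of Cell Ranger and was read as counts not yet treated by CellBender.

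Barcodes needed a minimum of 500 UMIs and a mitochondrial share below 5%, which left 1609 of 1661 and 9036 of 9037 nuclei with 15346746 and 58923882 UMIs over 32285 genes. The libraries share 1 barcode sequence. Scrublet in scanpy 1.11.5 marked 7 and 0 nuclei and was taken not to have worked, so the 22 and 653 highest scores were marked and kept, and removed only as an alternative. Clusters came from Seurat 5.3.0 in R 4.3.3 (2000 variable genes without the members and pathway genes, 30 principal components, Louvain resolution 0.8). A cluster was named with at least 4 of 8 markers found in at least 10% of nuclei and 2-fold above the other nuclei, from 15 and 23 lists. A cluster with a median under the library median divided by 3 also needed a marker among its 10 leading genes. CA1-like nuclei were clustered again with 1000 variable genes, 25 components and resolution 0.5.

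With 1 library for each group no test was made. Intervals were computed with scipy 1.17.1, and a count of 0 was taken to allow 3 counts. A fold of 2 over genes with at least 20 UMIs gave the background shares. The scripts were tested on simulated counts. Named genes are the members, the pathway lists, the markers, the 3 leading genes of unnamed clusters and, for each member, the 3 genes most like it. Plk5 and Trpc6 are markers among leading genes, and leading genes of named clusters were named after their values were seen. The members and all lists were chosen with earlier results of these data known. 1 of the lists of pathway genes and some leading genes are not reported here. Spatial positions and the other tissues were not analysed here.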

Additional observations from a re-analysis of the deposited data

How the results depend on the processing

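The counts of members at least 2-fold higher (2) and lower (1) in the hippocampus library were unchanged under all 5 alternatives tried for them: a minimum of 2000 UMIs, a maximum of 1% mitochondrial UMIs, removal of marked doublets, levels without mitochondrial genes and Malat1, and means over nuclei. Means over nuclei gave ratios of 12.8 for Bdnf, 9.21 for Ntf3, 1.32 for Ntrk2, 0.971 for Ntrk3 and 0.270 for Ngfr. Of 100 levels by class, 41 moved beyond their interval when each nucleus was classed by its own marker UMIs, 8 without the nucleus with the most UMIs of that gene (chosen after seeing the data), 7 of 95 with 4000 variable genes, 6 without marked doublets, 4 at resolution 1.6 and 2 with the members kept among the variable genes. The forebrain GABAergic-like class was not found with 4000 variable genes. No paired analysis was possible because each group has 1 library, which also leaves animal, age, region, dissection and library without separation.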
